A study of Saccharomyces cerevisiae with 12 samples.

Results

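The single-copy RPL genes are the genes of the large ribosomal subunit of yeast that carry an RPL name and exist without a paralog. They were taken by systematic name, and all 10 of the 7126 IDs in the count files were present and passed the filter on low counts: RPL3 (YOR063W), RPL5 (YPL131W), RPL10 (YLR075W), RPL25 (YOL127W), RPL28 (YGL103W), RPL29 (YFR032C-A), RPL30 (YGL030W), RPL32 (YBL092W), RPL38 (YLR325C) and RPL39 (YJL189W). Most yeast ribosomal proteins come from duplicated genes whose near-identical copies can share sequencing reads, whereas these 10 have no such copy. The rule rests on the RPL name and the absence of a paralog and uses no measured value.

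The mRNAs were counted in 4 groups of 3 libraries: total mRNA and polysomal mRNA of a wildtype and of a ΔES27Lb strain. ES27L is an expansion segment of the 25S rRNA, and ΔES27Lb lacks its b-arm. According to the methods, all cells derive from yJD1045 (NOY891; MATa, with ade2, ura3, leu2, his3, trp1 and can1 alleles), in which the chromosomal rDNA is deleted (rdn1ΔΔ::HIS3). Thus wildtype and mutant alike live on rRNA from plasmid pJD694, which carries URA3, a 35S operon behind a tetracycline-repressible promoter and an 18S point mutation for hygromycin B resistance. For RNA extraction the methods name YPD with hygromycin B, and for polysome profiles YPD, both to an optical density of 0.8. Whether the total and polysomal libraries came from cells in different media is not stated. Lysates for polysomes contained cycloheximide, and poly(A) RNA was sequenced. The labels number the replicates but do not say that they are separate cultures, so p-values measure the spread between these libraries. The measure of ribosome association is P/T, the ratio of a gene's polysomal to its total mRNA, given as log2. It is a ratio of relative abundances, so a lower P/T can come from less polysomal or from more total mRNA.

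Library totals were 15050764 to 21532842 counts, and the 10 genes took 2.01% to 3.63% of them, so counting error was small beside the spread between replicates. The lowest level that 3 counts allow was 0.108 to 0.223 CPM (counts scaled to library size with TMM), far under every value below. Total and polysomal libraries of the same strain and number deviated together (r = 0.203 to 0.899 over 5152 genes). Libraries of the same pool and number from different strains, which share no culture, had r = -0.107 to 0.551. As these ranges overlap, the correlations do not show that paired pools came from the same culture. Therefore each comparison is given from the edgeR fit without replicate block and, where a call changes, also with the block.

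Ribosomal proteins are made in stoichiometric amounts, mostly imported into the nucleus and built into pre-ribosomes in a fixed order, and their mRNAs are among the most abundant in growing yeast. Transcription of most RP genes runs through Rap1, with Fhl1 and Ifh1, and responds to TOR and PKA signalling. Several of the 10 proteins have a dedicated place or partner. Rpl3 lies close to the peptidyl transferase centre and is escorted by the chaperone Rrb1. Rpl5 joins the 5S rRNA and Rpl11 in the 5S RNP with the help of Syo1. Rpl10 is a late joiner brought by Sqt1. Rpl25 and Rpl39 border the end of the nascent peptide tunnel, and Rpl25 is a docking site for factors that meet the nascent chain. Rpl28 is the protein in which cycloheximide resistance mutations arise. Rpl30 binds its own transcript and blocks its splicing. Rpl29, Rpl38 and Rpl39 are small proteins that yeast can live without, and in mouse the Rpl38 protein is known for its role in the translation of Hox mRNAs.

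The coding sequences run from 1164 nt in RPL3 through 894 nt in RPL5, 666 nt in RPL10, 450 nt in RPL28, 429 nt in RPL25, 393 nt in RPL32, 318 nt in RPL30, 237 nt in RPL38 and 180 nt in RPL29 to 156 nt in RPL39 (RefSeq annotation of S288C, R64). An intron interrupts the coding sequence of RPL25 (414 nt), RPL28 (511 nt), RPL30 (230 nt) and RPL39 (386 nt), and the other 6 have none. The start of each intron is shown with the last 3 coding bases before it, 5′ to 3′, with the donor (the first 6 bases of the intron) in capitals, because it is a regulated step for RPL30 and the members differ in it.
RPL25, chrXV:80358-80383, plus strand: ctgGTATGTgaactgcaatattaata
RPL28, chrVII:311013-311038, plus strand: cagGTATGTagttccatttggaagag
RPL30, chrVII:439091-439116, plus strand: atgGTCAGTataacatgattttataa
RPL39, chrX:75936-75961, plus strand: gctGTATGTtagaaagatattataaa
The donor of RPL30, which directly follows its start codon, was GTCAGT, while the other 3 had GTATGT. All 4 introns held TACTAAC, the branch point letters.

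The 600 bases before each start codon were searched on both strands for ANCCNNACA, a core of the Rap1 site that leaves its variable positions open (as N), since Rap1 is the activator that RP genes are known to share. Such letters were found in 7 of the 10 members, against 21.8% of 5999 windows of the same length over all coding genes. The 8 matches are shown in R64 coordinates with the letters in capitals, read in the direction of the gene.
RPL5, chrXVI:302823-302848, plus strand: acttgtacATCCAGACAtcctaaaac
RPL25, chrXV:79942-79967, plus strand: atttaataTGTACGGGTgtttacatg
RPL28, chrVII:310695-310720, plus strand: caccagggACCCACACAttaccaaaa
RPL30, chrVII:438752-438777, plus strand: ttccaaaaTGTATGGATggtaaggtc
RPL30, chrVII:439021-439046, plus strand: tataatatAACCAAACAgaccggagt
RPL32, chrII:45393-45418, plus strand: ggaggcatTGTATGGTTtccgtctgg
RPL38, chrXII:781631-781656, minus strand: tttcataaACCCACACAattaaaatg
RPL39, chrX:75355-75380, plus strand: cattaaaaAACCTTACAatttaagaa
They end 281 bases before the start codon in RPL5, 389 in RPL25, 255 in RPL28, 322 and 53 in RPL30, 568 in RPL32, 260 in RPL38 and 561 in RPL39. Those of RPL25 and RPL32 and the farther one of RPL30 lie on the opposite strand. A match is a string of letters, and its absence in RPL3, RPL10 and RPL29 says nothing of Rap1 there.

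Per kilobase of coding sequence, the 10 mRNAs were among the most abundant of the 5695 coding genes tested. In wildtype total mRNA the mean level ran from 1848 CPM per kb for RPL29, the gene at rank 144, to 5851 CPM per kb for RPL38 at rank 16, a 3.17-fold range. Between them, in rising order, came RPL5, RPL25, RPL3, RPL28, RPL30, RPL32, RPL39 and RPL10. The libraries of any 2 neighbours in this order overlapped, while the ends were apart, with RPL29 at most at 2544 and RPL38 at least at 4427 CPM per kb. RPL29 was also below RPL5 within each of the 3 libraries. In wildtype polysomal mRNA RPL10 was highest at 11643 CPM per kb and rank 10, and RPL29 lowest at 2955 CPM per kb and rank 153. RPL29 was there set apart from its neighbour RPL5, with a highest library of 3316 against a lowest of 3798 CPM per kb. In ΔES27Lb polysomal mRNA the same genes held the ends, RPL10 at 11555 and RPL29 at 2681 CPM per kb. In ΔES27Lb total mRNA RPL39 had the highest mean, 10096, and RPL5 the lowest, 3670 CPM per kb, and both places rest on replicate 3. Without that library RPL38 was highest (8019) and RPL29 lowest (2894 CPM per kb, against a mean of 5959 with it), the same ends as in wildtype total mRNA.

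**Figure D1:**
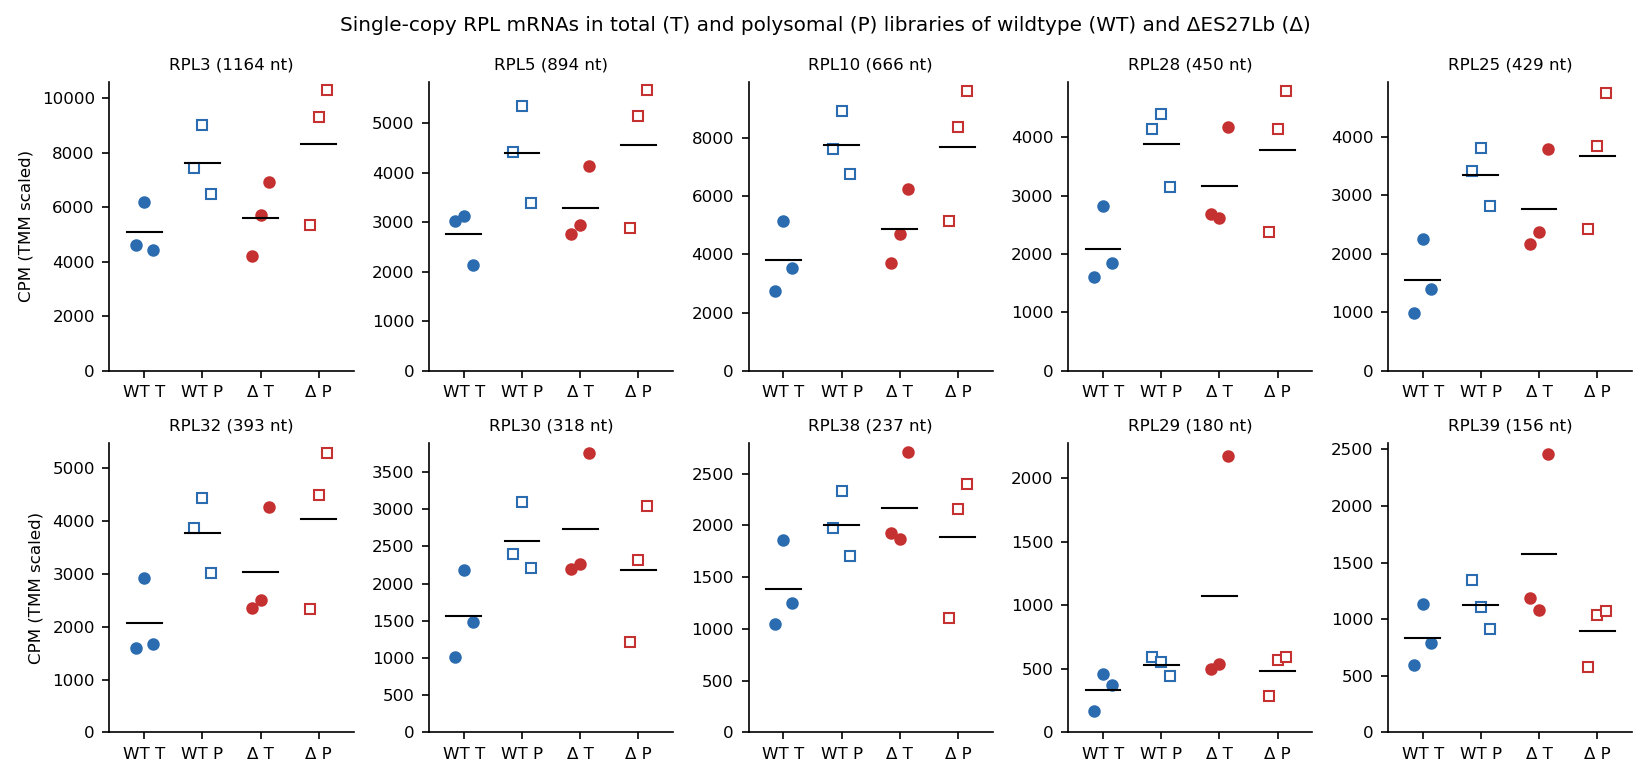
Level of each single-copy RPL mRNA in CPM (linear axis from 0) in the 3 libraries of wildtype total, wildtype polysomal, ΔES27Lb total and ΔES27Lb polysomal mRNA, with the group mean as a line and panels ordered by coding length. The polysomal libraries of wildtype lie above the total libraries for the long genes, and ΔES27Lb total replicate 3 stands high in the panels of RPL29 (2176 CPM) and RPL39 (2463 CPM).

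In the wildtype, all 10 mRNAs had a log2 P/T above 0, and the genes of middle length were highest. RPL25 led with 1.11 ± 0.37 (SE of the fit), followed by RPL10 with 1.03 ± 0.34, RPL28 with 0.90 ± 0.34 and RPL32 with 0.87 ± 0.38. The lowest were RPL39 with 0.42 ± 0.38, RPL38 with 0.53 ± 0.34 and RPL3 with 0.58 ± 0.32, while RPL30 (0.72 ± 0.39), RPL29 (0.68 ± 0.55) and RPL5 (0.67 ± 0.33) lay in between. The median of the 10 was 0.70, against -0.06 over all 6003 genes tested, of which 46.5% were above 0.

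The libraries show how far replicates carry these ratios. For RPL10, wildtype total mRNA held 2734, 5134 and 3529 CPM and polysomal mRNA 7603, 8907 and 6752 CPM in replicates 1, 2 and 3. For RPL25, total mRNA held 996, 2261 and 1402 CPM and polysomal mRNA 3421, 3813 and 2813 CPM. For RPL39, total mRNA held 593, 1130 and 789 CPM and polysomal mRNA 1350, 1105 and 917 CPM. In RPL10 and RPL25 every polysomal library exceeded every total library, whereas those of RPL39 overlapped. Such separation was seen for 7 of the 10 members, all but RPL29, RPL38 and RPL39, and for 14.5% of all genes tested. Wildtype replicate 1 had the highest P/T in 9 members, with RPL5 as the exception: the median of the 10 was 1.26 in replicate 1, 0.57 in replicate 2 and 0.62 in replicate 3. Of the 30 values, RPL39 in replicate 2 (-0.03) was the only one below 0.

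Without the replicate block, edgeR called none of the 10 at a Benjamini-Hochberg adjusted p of 0.05, where 0.117% of all genes passed, and the smallest adjusted p among them was 0.105, for RPL10 and RPL25. The unadjusted p was at or under 0.05 in 4 of them and in 28.5% of all genes. With the block, 7 of 10 passed as higher in polysomes, against 16.9% of all genes called in that direction. RPL10 and RPL25 had an adjusted p of 0.0116, RPL32 of 0.0161, RPL28 of 0.0162, RPL30 of 0.0292, RPL5 of 0.0297 and RPL3 of 0.038 in edgeR's quasi-likelihood test. RPL38 (0.0757), RPL29 (0.137) and RPL39 (0.229), the shortest, did not pass. The Wald test of DESeq2, without block, called RPL10, RPL25 and RPL28, against 5.88% of all genes with an adjusted p called as higher. With the block and a replicate left out, fewer of all genes passed as higher, except without ΔES27Lb replicate 2 (17% against 16.9%). Without wildtype replicate 1, or without wildtype replicate 3, RPL10 and RPL25 were the 2 members called, against 8.56% and 8.44% of all genes called as higher. Without wildtype replicate 2 or ΔES27Lb replicate 3 there were 5, against 13.8% and 13.7%, and without ΔES27Lb replicate 1 or 2 there were 7, against 14.1% and 17%. The blocked median of the members was 0.77 with all replicates, 0.65 without wildtype replicate 1 and 0.91 without wildtype replicate 3, so the calls lost without replicate 3 did not go with lower ratios. Leaving out wildtype replicate 1 also took RPL39 from 0.42 to 0.11 and RPL29 from 0.68 to 0.30 in log2 P/T without block.

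**Figure D2:**
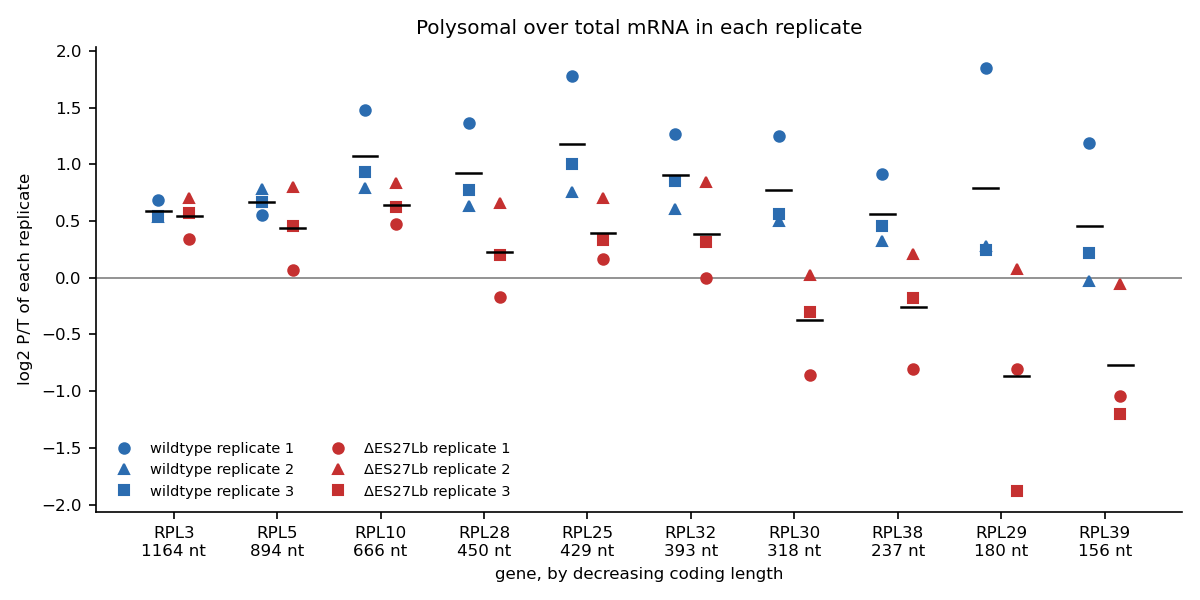
log2 P/T of each replicate (polysomal over total library of the same strain and number) for the 10 genes in order of decreasing coding length, wildtype in blue and ΔES27Lb in red, with means as lines. The wildtype values lie above 0 but for RPL39 in replicate 2, while the ΔES27Lb values step down towards the short genes on the right.

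In ΔES27Lb, the long members had a log2 P/T above 0 and the short ones lay below it. RPL10 had 0.66 ± 0.34, RPL3 0.57 ± 0.32 and RPL5 0.48 ± 0.32. RPL32 (0.41 ± 0.38), RPL25 (0.41 ± 0.37) and RPL28 (0.26 ± 0.34) followed. RPL38 (-0.20 ± 0.33), RPL30 (-0.32 ± 0.39), RPL39 (-0.82 ± 0.38) and RPL29 (-1.15 ± 0.55) were below 0. The median was 0.33, against -0.06 over all genes.

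Polysomal mRNA of RPL29 held 287, 568 and 593 CPM in ΔES27Lb, and its total mRNA 502, 540 and 2176 CPM. For RPL39, polysomal mRNA held 574, 1040 and 1072 CPM and total mRNA 1185, 1078 and 2463 CPM. RPL3, the longest, held 5344, 9315 and 10318 CPM in polysomal and 4212, 5718 and 6931 CPM in total mRNA. Replicate 3 gave the low P/T of RPL29 (-1.88) through its total library, whereas replicate 1 had the lowest polysomal levels of all 10 members. In replicate 1, 4 members were above 0, in replicate 2 there were 9 and in replicate 3 there were 6. Within replicates, RPL3, RPL5, RPL10 and RPL25 had a log2 P/T above 0 in all 3, as did 25.7% of all genes, and RPL39 was below 0 in all 3, as were 30.8%. Without regard to pairing, no member had all polysomal libraries above all total ones, which 9.43% of the genes tested did.

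None of these ratios passed edgeR's test without block, where 0 of 6003 genes (0%) did, and none of the 10 had an unadjusted p at or under 0.05, which 15% of all genes had. With the block 6.96% of all genes passed and again 0 of the 10, while 4 members and 33.7% of all genes were at or under 0.05 unadjusted, with a smallest adjusted p among the members of 0.0734, for RPL10. DESeq2 called 0 as well, against 1.21% of all genes with an adjusted p. There 4 members and 16.4% of all genes were at or under 0.05 unadjusted. With the block and without wildtype replicate 1, RPL3 (0.60), RPL10 (0.71) and RPL39 (-0.71) passed, in a fit in which 28.1% of all genes did. Without ΔES27Lb replicate 3, the log2 P/T of RPL29 was -0.27 and that of RPL39 -0.47.

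The question of the study was whether ribosomes without ES27Lb translate particular mRNAs differently, which for these genes is the difference between the 2 ratios. All 10 differences (ΔES27Lb minus wildtype, on the log2 scale) were below 0, and they were largest in the short mRNAs. The rank correlation (Spearman) of the difference with coding length was 0.94 over the 10 members and 0.55 over 5695 genes. RPL3 (-0.02 ± 0.46), RPL5 (-0.19 ± 0.46) and RPL10 (-0.37 ± 0.48) differed least. RPL32 (-0.46 ± 0.53), RPL28 (-0.64 ± 0.48), RPL25 (-0.70 ± 0.52) and RPL38 (-0.73 ± 0.47) were in the middle. RPL30 (-1.04 ± 0.55), RPL39 (-1.24 ± 0.54) and RPL29 (-1.83 ± 0.77) differed most. The median was -0.67, where all genes had a median of -0.002. Without RPL29 the median of the other 9 was -0.64.

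No difference passed the test. edgeR called 0 of the 10 and 0% of all genes without block, and likewise 0 and 0% with the block, with adjusted p-values of 1 and of at least 0.878. The unadjusted p was at or under 0.05 for RPL29 (0.0352) and RPL39 (0.0389) in edgeR's quasi-likelihood test without block, and for 0.766% of all genes. With the block it was so for 3.12% of all genes and for 5 members, RPL25, RPL29, RPL30, RPL38 and RPL39. DESeq2 called 0 of the 10 and 0.0145% of all genes, and 2 members and 1.06% of all genes were at or under 0.05 unadjusted. In the same 5 genes the 3 ΔES27Lb ratios all lay below the 3 wildtype ratios, which held for 4.26% of all genes. The gaps were narrow in RPL39 (lowest wildtype ratio -0.03, highest ΔES27Lb ratio -0.05) and in RPL25 (0.75 and 0.70). For RPL30 the wildtype ratios were 1.25, 0.50 and 0.57 and the ΔES27Lb ratios -0.86, 0.03 and -0.30. For RPL38 they were 0.91, 0.32 and 0.45 against -0.80, 0.21 and -0.18. For RPL3 they were 0.68, 0.54 and 0.54 against 0.34, 0.70 and 0.57, which overlap. RPL3 had no stable sign either, with 0.16 when libraries were scaled to ACT1, GCN4 and TAF10 (which moved the median of all genes to 0.23) and 0.05 without wildtype replicate 1. The median difference was -0.42 without wildtype replicate 1 and -0.86 without wildtype replicate 2, and that of RPL29 alone was -0.95 without ΔES27Lb replicate 3.

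**Figure D3:**
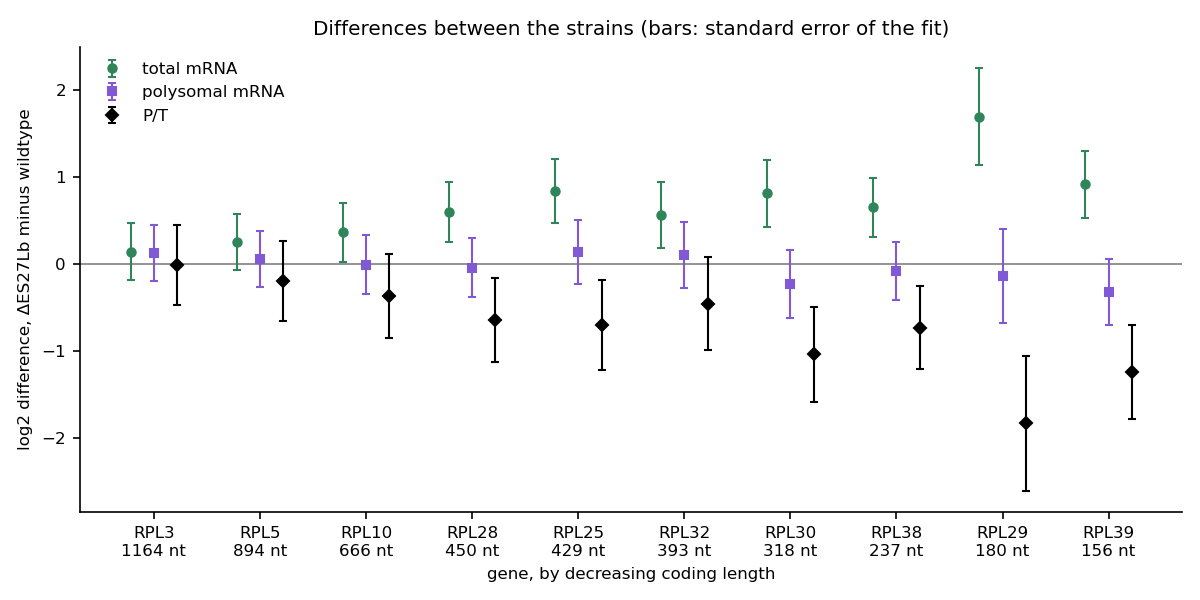
Fitted log2 differences, ΔES27Lb minus wildtype, of total mRNA, polysomal mRNA and P/T for the 10 genes in order of decreasing coding length, with bars for the standard error of the fit. The total mRNA lies above 0 in all 10 and polysomal mRNA between -0.33 and 0.14, and P/T follows total mRNA with the opposite sign.

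Split into its parts, the fitted difference over all 12 libraries lay mostly in the total pool, but this split depended on single replicates. Without ΔES27Lb replicate 3 the member medians were 0.37 in total and -0.23 in polysomal mRNA, with the block 0.34 and -0.35, and with the block and without wildtype replicate 3 they were 0.38 and -0.40. Total mRNA was above wildtype in all 10 members, with a median of 0.62 on the log2 scale against -0.0007 over all genes. RPL29 (1.69 ± 0.56), RPL39 (0.91 ± 0.38), RPL25 (0.84 ± 0.37) and RPL30 (0.81 ± 0.39) had the largest values. RPL38 (0.65 ± 0.34), RPL28 (0.60 ± 0.34), RPL32 (0.56 ± 0.38) and RPL10 (0.36 ± 0.34) followed, and RPL5 (0.25 ± 0.32) and RPL3 (0.14 ± 0.32) had the smallest. The rank correlation with length was -0.88 over the members and -0.52 over all genes. edgeR called none of them and 0% of all genes, without and with block, with adjusted p-values of at least 0.747 and 0.451. The unadjusted p was at or under 0.05 in 3 members and 5.85% of all genes without the block and in 5 members and 10.9% with it. DESeq2 called 0 members and 0.0579% of all genes, with 4 members and 6.5% of all genes at that level.

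RPL30, the mRNA that its own protein regulates, held 1013, 2186 and 1490 CPM in wildtype total mRNA and 2191, 2268 and 3753 CPM in ΔES27Lb. RPL38 held 1049, 1864 and 1247 CPM against 1931, 1870 and 2714 CPM. RPL29 held 166, 458 and 374 CPM against 502, 540 and 2176 CPM. In these 3 genes the strains did not overlap, as in 5.05% of all genes with ΔES27Lb above, but the gaps were narrow, 2186 to 2191 CPM for RPL30 and 1864 to 1870 CPM for RPL38. ΔES27Lb total replicate 3 was the highest of the total libraries in all 10 members and wildtype total replicate 1 the lowest in 8. Without ΔES27Lb replicate 3 RPL29 was at 0.63 and RPL3 at -0.06, with the other 9 above 0.

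Over all replicates, the fitted difference in polysomal mRNA ran from -0.33 ± 0.38 in RPL39 to 0.14 ± 0.36 in RPL25, with a median of -0.03 and 4 of 10 members above 0. It depended on single replicates: without ΔES27Lb replicate 3 the median was -0.23 with 0 of 10 above 0, and without ΔES27Lb replicate 1 it was 0.20 with 9 of 10 above 0. RPL10 held 7603, 8907 and 6752 CPM in wildtype polysomes and 5136, 8359 and 9591 CPM in those of ΔES27Lb. RPL28 held 4140, 4390 and 3143 CPM against 2384, 4141 and 4794 CPM. The strains overlapped in all 10 members, where 5.61% of all genes did not overlap, and ΔES27Lb spread more widely, with a median coefficient of variation of 32.6% against 16.8% in wildtype. edgeR called 0 members and 0% of all genes, without and with block, and DESeq2 called 0 members and 0.0579% of all genes. No member had an unadjusted p at or under 0.05 in any of these fits. The share of all genes at that level was 1.22% without block, 2.53% with it and 1.51% in DESeq2. With standard errors of 0.32 to 0.54, these data do not show that the polysomal levels are equal.

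Length ordered the members within ΔES27Lb. The rank correlation (Spearman) of log2 P/T with coding length over the 10 genes was 0.89 in ΔES27Lb and 0.33 in wildtype, as a description of 10 genes that share the same libraries. The replicates gave 0.86, 0.72 and 0.90 in ΔES27Lb and -0.29, 0.79 and 0.56 in wildtype, so wildtype replicate 1 alone ran the other way. Over 5695 genes the relation had the opposite sign, -0.42 in ΔES27Lb and -0.66 in wildtype, as long genes had a low P/T in both strains. The relation is humped, with a fall on the short side. At the lengths of the members, a loess trend over all genes was highest at RPL28 (0.54) in wildtype and at RPL10 (0.25) in ΔES27Lb. All 10 members lay above this trend in wildtype, by 0.50 in the median, and 7 of 10 in ΔES27Lb, by 0.19. The 3 below it in ΔES27Lb were RPL29 (-0.59), RPL30 (-0.25) and RPL39 (-0.11). The RPL genes with a paralog also lay above it in the median, by 0.48 in wildtype and 0.37 in ΔES27Lb. With the trend removed, the correlation over the members was 0.78 in ΔES27Lb and 0.04 in wildtype.

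**Figure D4:**
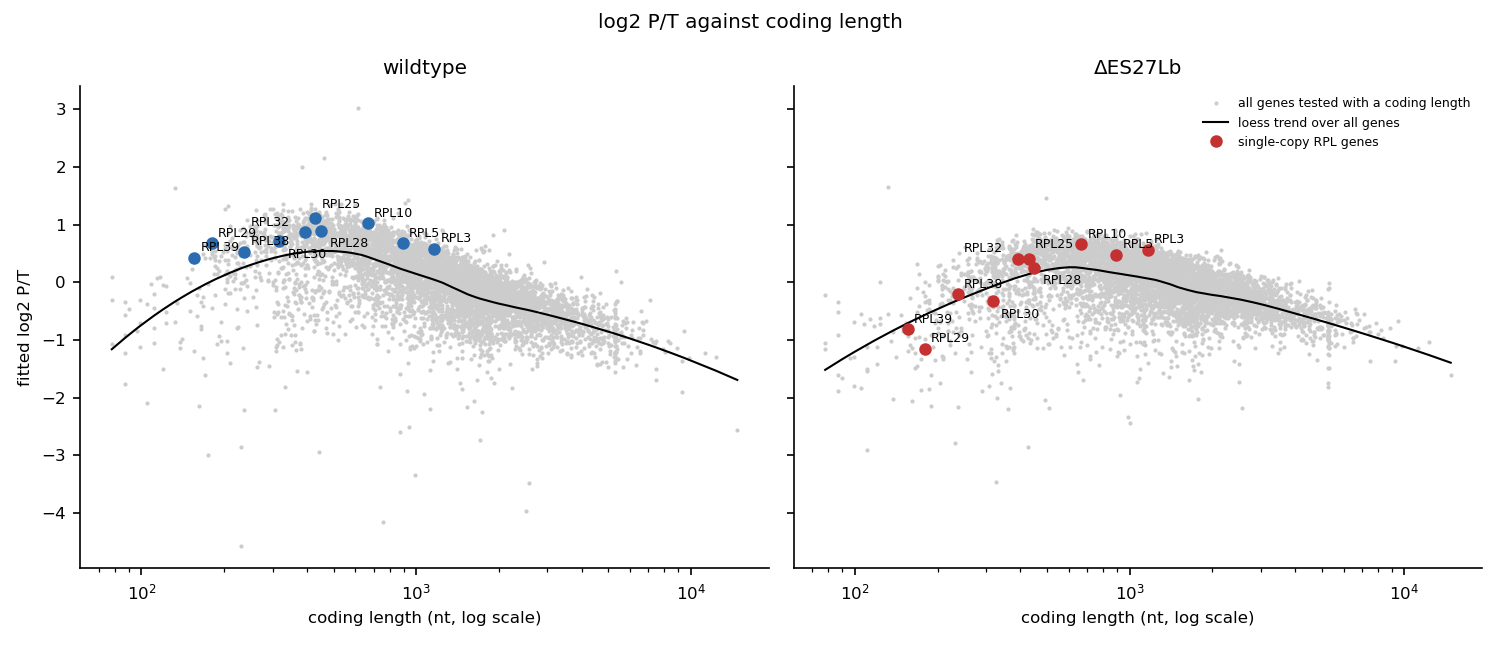
Fitted log2 P/T against coding length (nt, log axis) in wildtype and in ΔES27Lb, with all 5695 genes tested in grey, their loess trend as a line and the 10 single-copy RPL genes in colour. In wildtype all 10 lie above the trend, whereas in ΔES27Lb the short members descend along its left flank and RPL29, RPL30 and RPL39 lie below it.

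Other short genes moved in the same direction between the strains. Over 145 further genes with at most 240 nt of coding sequence, wildtype had a median log2 P/T of 0.01 and ΔES27Lb one of -0.60, and the median difference was -0.62. Their total mRNA was higher in ΔES27Lb by 0.30 and their polysomal mRNA lower by 0.27 in the median. RPL38, RPL29 and RPL39 fall in this class of length, with P/T differences of -0.73, -1.83 and -1.24. The short genes also differed between replicates: their median deviation from the group mean was -0.49 in wildtype total replicate 1 and 0.26 in ΔES27Lb total replicate 3. The members deviated by -0.38 and 0.55 in the mean in these libraries. The signs were opposite in others, such as wildtype polysomal replicate 3 (short genes 0.10, members -0.25), wildtype polysomal replicate 2 (-0.12 and 0.20) and wildtype total replicate 3 (0.20 and -0.09). The members were lowest in ΔES27Lb polysomal replicate 1 (-0.63), where the short genes were at -0.16. The part of length, or of the recovery of short mRNAs in single libraries, in the results of the members was not tested.

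The 10 mRNAs moved together from library to library. Each log2 CPM was taken as its deviation from the mean of its group, which removes strain and pool, and all 45 pairs of members correlated with r from 0.57 to 0.99 over the 12 libraries, with a median of 0.91. The libraries share their scaling, and each group contributes 2 free values, so this is a description. RPL28 and RPL32 followed the mean of the other members most closely (r = 0.99 and 0.98) and RPL5 (0.79) and RPL29 (0.85) least. All 10 were above their group mean in wildtype total replicate 2, ΔES27Lb total replicate 3 and ΔES27Lb polysomal replicates 2 and 3. All 10 were below it in wildtype polysomal replicate 3 and in replicate 1 of both ΔES27Lb pools, by 0.33 (total) and 0.63 (polysomal) in the mean.

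**Figure D5:**
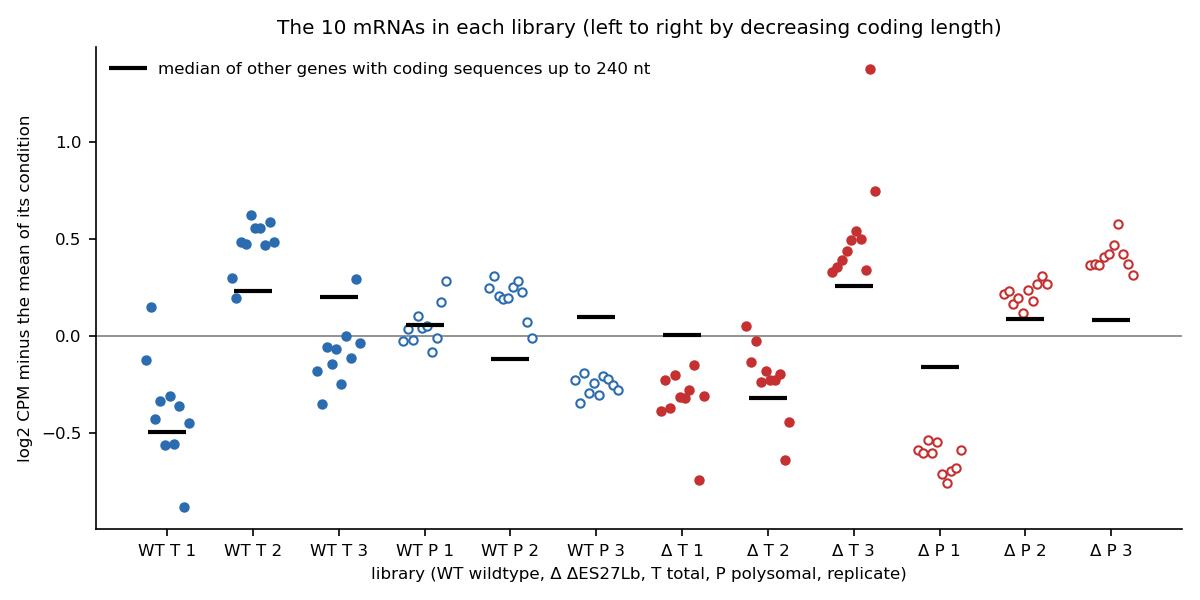
Deviation of each member's log2 CPM from the mean of its group in the 12 libraries (10 points a library, by decreasing coding length from left to right), with the median of the other genes of at most 240 nt as a bar. The 10 points lie on one side of 0 in 7 of the 12 libraries, and RPL29 in ΔES27Lb total replicate 3 (1.38) lies farthest out.

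Of 5142 genes whose log2 CPM averaged 3 or more, those most like the mean of the 10 members in this deviation were RPL17A (r = 0.996), RPL11A (0.995), RPS15 (0.994), RPL13B (0.994) and RPL23B (0.993). All are ribosomal protein genes. Ribosomal protein genes other than the members were 43 of the 50 and 74 of the 100 most alike, and 2.51% of the genes ranked.

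The other ribosomal protein genes were compared with the single-copy RPL genes by counts and medians. The 66 paired RPL genes had a median log2 P/T of 0.97 in wildtype and 0.50 in ΔES27Lb, with 65 and 58 above 0. With the block, 59 of them passed as higher in wildtype, against 16.9% of all genes. Their extremes in wildtype were RPL20A (1.27) and RPL41B (-0.31). All 66 had a lower P/T in ΔES27Lb, with a median difference of -0.45, from -0.15 in RPL8B to -1.43 in RPL22B, and none passed the test. Their total mRNA differed by 0.68 and their polysomal mRNA by 0.19 in the median, with 55 of 66 above 0 in polysomal mRNA, where 4 of the 10 members were. The count of the members depended on single replicates, with 0 without ΔES27Lb replicate 3 and 9 without ΔES27Lb replicate 1. Copies of a pair can share reads, and how such reads were counted is not given. The values of the 2 copies may therefore depend on each other. The 8 single-copy RPS genes of the small subunit had a median log2 P/T of 0.82 in wildtype. There 5 passed as higher with the block, against the same 16.9% of all genes. In ΔES27Lb their median was 0.39, and all 8 were above 0, against 6 of the 10 members. The lowest of the 8 in ΔES27Lb, RPS12, was at 0.0055 without the block and at -0.0619 with it. Their extremes in wildtype were RPS15 (1.27) and RPS2 (0.56), and all 8 differences were below 0, with a median of -0.39, from -0.22 in RPS2 to -0.79 in RPS13. In total mRNA these 8 differed by 0.58 and in polysomal mRNA by 0.18, with all 8 above 0 in each without the block. With the block, RPS12 (-0.0301) and RPS13 (-0.0091) were below 0 in polysomal mRNA.

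The genes listed as partners in ribosome assembly did not follow the members in wildtype P/T or in the difference between the strains. In ΔES27Lb P/T their median was near that of the members, 0.27 against 0.33, with 10 of 14 and 6 of 10 above 0. Of 15 chaperones, importers and assembly factors, such as RRB1, SQT1, SYO1, NMD3 and LSG1, 14 were tested, with a median log2 P/T of 0.13 in wildtype and 0.27 in ΔES27Lb. With the block, 3 passed as higher and 1 as lower in wildtype, against 16.9% and 15.6% of all genes. ALB1 (0.70) was at one end and KAP123 (-0.43) at the other. Their differences between the strains were above 0 in 7 and below 0 in 7, from LSG1 (0.48) to SYO1 (-0.31). The 10 regulators of RP transcription had a median log2 P/T of -0.22 in wildtype and -0.09 in ΔES27Lb. They ranged in wildtype from STB3 (0.28) to IFH1 (-1.12), 1 of them passing as lower with the block, against 15.6% of all genes. In total mRNA the regulators differed by -0.11 between the strains in the median, with SCH9 (0.22) highest and IFH1 (-0.92), a coactivator of RP genes, lowest. ACT1, GCN4 and TAF10, the reference genes, had a median log2 P/T of 0.44 in wildtype and 0.32 in ΔES27Lb, with TAF10 highest and GCN4 lowest in both. None of the genes in these lists passed edgeR's test of a difference between the strains.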

How the data were processed

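Per the labels, total and polysomal poly(A) RNA was made into libraries with an Illumina stranded mRNA kit. The authors sequenced on a HiSeq3000, aligned to BY4742 with HISAT2 and counted with featureCounts. The deposited files hold 1 column of raw counts each, not normalized. Versions, annotation and use of strand in counting are not given in the sources used here, so antisense reads cannot be told apart. Of 7126 IDs, 6048 matched RefSeq R64, which gave names, lengths, sequences and coordinates, while the counts were made on BY4742. Counts were analysed in R 4.3.3 with edgeR 4.0.16 (quasi-likelihood, TMM, default filter, 6003 genes, all 12 libraries, 1 mean per group, no replicate block, Benjamini-Hochberg, 0.05), after a test on simulated data. Ratios of single replicates used a prior count of 0.5. Within a strain, pools were paired by label number. Correlations of deviations were 0.405, 0.677 and 0.899 in wildtype and 0.505, 0.203 and 0.725 in ΔES27Lb. Between the strains they were 0.192, 0.395 and 0.435 in total and -0.107, 0.551 and 0.3 in polysomal mRNA. Blocked strain comparisons within a pool used the replicate number as block. Alternatives were DESeq2 1.42.0 (its size factors, its Wald test), other filters, only the libraries compared, ACT1, GCN4 and TAF10 scaling, the block, a length trend removed (loess, span 0.5) and leaving out each replicate. All 10 members are named by rule, and of other lists the highest and lowest gene and the 5 genes most alike. The rule for the members uses no measured value, but it and the lists were chosen with earlier results of these data known. Plots were drawn with matplotlib 3.10.9.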

Additional observations from a re-analysis of the deposited data

How the results depend on the processing

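None of the 10 members passed edgeR's test in any of the 5 comparisons under DESeq2 size factors, either filter, scaling to ACT1, GCN4 and TAF10 or leaving out a replicate without block, nor in the 4 comparisons for which a fit of only the libraries compared was run. In wildtype P/T the replicate block called 7 and DESeq2 3, and the block with a replicate left out called 2 to 7, where 8.44% to 17% of all genes were called as higher. In ΔES27Lb P/T the block with a replicate left out called 0 to 3, the 3 in a fit that called 28.1% of all genes. These fits without a replicate were chosen after seeing the data. The block changed no other call. Without the block, signs changed in the following differences, none of them called. The P/T difference of RPL3 was 0.0045 with DESeq2 size factors, 0.004 in DESeq2 and 0.16 with reference gene scaling, and its total mRNA was -0.0542 with that scaling. RPL10 in polysomes was 0.0035 with DESeq2 size factors and 0.0036 in DESeq2. With a replicate left out, the P/T difference of RPL3 ranged from -0.0946 to 0.0521 and its total mRNA from -0.055 to 0.31. Polysomal differences then ranged from -0.0596 to 0.36 in RPL3, -0.12 to 0.30 in RPL5, -0.20 to 0.21 in RPL10, -0.0899 to 0.36 in RPL25, -0.25 to 0.20 in RPL28, -0.31 to 0.13 in RPL29, -0.54 to 0.0596 in RPL30, -0.14 to 0.37 in RPL32 and -0.30 to 0.18 in RPL38. With the block and a replicate left out, signs also changed in the total mRNA of RPL3 and RPL5 (lowest -0.1431 and -0.1097), in the P/T difference of RPL3 (highest 0.0484), in the ΔES27Lb P/T of RPL38 (0.0145) and in the polysomal difference of all members but RPL30. The correlation of P/T with length in ΔES27Lb was 0.782 with the trend removed. Reference gene scaling moved the median of all genes by over 0.1, and relative to that median the members differed by -0.72 in P/T and 0.61 in total mRNA. Where the cause of a changed value is not part of the alternative itself, the cause was not tested.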
